A study of Mus musculus with 6 samples.

Results

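The genes described here are 35 mouse genes that the literature reports as direct targets of microRNA-125a or microRNA-125b, out of 55450 gene rows in the deposited counts. They were taken as a list of symbols, and each symbol matched 1 row through the GENCODE vM21 annotation. The list holds 7 apoptosis genes, 13 genes of transcription and chromatin, 3 phosphatase genes, 9 signalling genes and 3 genes of RNA binding. None of these reports was tested here, and the measured counts played no part in the listing rule.

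The study asked what changes when miR-125a is raised in blood stem cells. Mouse haematopoietic stem cells, sorted as LSK/SLAM cells, were given extra miR-125a or kept it at the endogenous level, and recipient mice received them after lethal irradiation. RNA was sequenced 12 weeks after transplantation from bone marrow cells sorted as lineage-Sca+, 2000 cells for each library, with the NEBNext low-input kit. All libraries carry the strain label C57BL6/SJL. The labels name 6 libraries, 3 in each group. Of these, 4 were analysed: endogenous 1 and endogenous 3, and overexpressed 2 and overexpressed 3, so n = 2 per group. The other 2 were not analysed here. The vector and promoter behind the overexpression, the age and sex of the mice, and the share of sorted cells that descend from the transplanted stem cells were not stated in the labels. They do not say either that each library had its own recipient, so p-values measure the spread between these libraries alone, and that spread may be technical.

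Total counts lay between 654126 and 737431 per library. The sort marker itself was almost unseen: Ly6a, which encodes Sca-1, had 1 and 0 counts in endogenous 1 and 3 and 1 and 1 in overexpressed 2 and 3. Other genes of the early progenitor list were counted, such as Ptprc, the pan-leukocyte antigen CD45, with 19 and 115 against 51 and 60. The overexpressed locus cannot be checked in these counts, since Mir125a had 0, 0, 0 and 1 counts and a library of long RNA does not hold the mature microRNA. The share of mitochondrial genes was 0.558% in overexpressed 3 and lay between 4.14% and 6.29% in the other 3 libraries. In bulk RNA such as this, fewer cells of a type and less RNA per cell cannot be told apart.

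A microRNA guides an Argonaute protein to messenger RNAs, mostly through pairing of its seed, the bases next to its 5′ end, with the 3′ UTR. The paired messenger is then repressed or degraded, so a target can be lowered at the RNA or only at the protein level. The miR-125 family is conserved from worms, where its founding member is lin-4, to mammals, and in blood stem cells a raised level is known to expand the stem cell pool and can lead to leukaemia. Its best known targets in that setting are promoters of cell death.

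The mature sequences are shown first because every site below is a match to their shared seed. They are read 5′ to 3′ from RefSeq (GRCm38.p6), with the seed, bases 2 to 8, in capitals. miR-125a-5p is encoded at chr17:17830817-17830840 on the + strand.
miR-125a-5p: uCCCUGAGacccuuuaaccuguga
miR-125b-5p: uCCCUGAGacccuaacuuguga
miR-351-5p: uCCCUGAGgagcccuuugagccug
The same seed is carried by miR-6367 and miR-6394, so a site for miR-125a is a site for all of these. miR-125b-5p is encoded at 2 loci, on chromosomes 9 and 16.

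Sites were searched in the sense strand of the longest annotated 3′ UTR of each gene. An 8mer is CTCAGGGA, a 7mer-m8 is CTCAGGG with no A after it, and a 7mer-A1 is TCAGGGA with no C before it, so no match is counted in more than 1 class. At least 1 of these was found in 32 of the 35 genes (91.4%), against 4104 of 21021 genes with an annotated 3′ UTR (19.5%). The targets have longer UTRs, with a median of 2353 bases against 961. Among the 6887 genes whose UTR length lies between the quartiles of the targets, 1185 to 3362 bases, 29.1% held a site. For 8mers alone the shares were 60.0% of the targets, 4.59% of all genes and 6.71% of genes of like UTR length. Seed matches are one of the ways in which such targets are nominated, so these shares describe the list and are not a finding about the samples.

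The 35 genes held 55 matches, of which 26 were 8mers, 16 were 7mer-m8 and 13 were 7mer-A1. Arid3a, a DNA-binding factor of B cells, had the most with 7. Bmf, a BH3-only killer protein, had 4, of which 3 were 8mers. No match was found in the 3′ UTRs of Trp53, Smad4 and Erbb2, which says only that these letters are not in those windows.

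**Figure D1:**
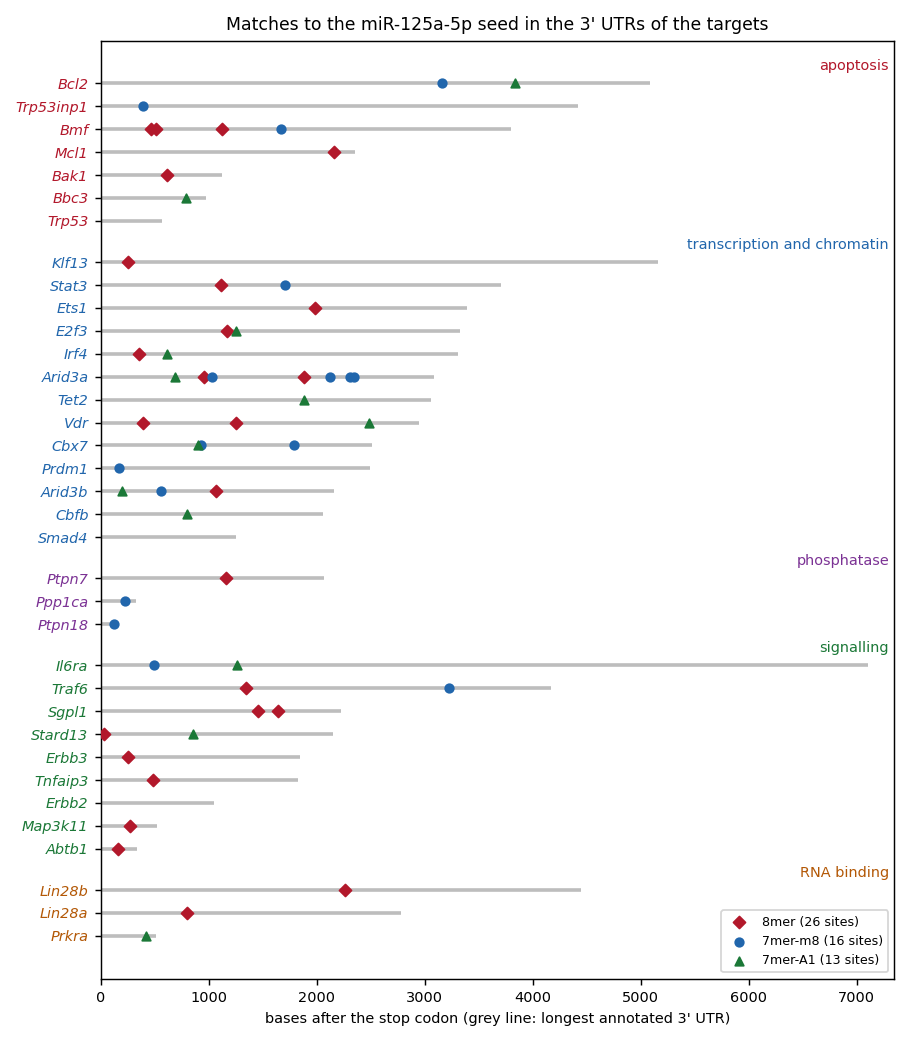
Positions of the seed matches along the longest annotated 3′ UTR of each target, in bases after the stop codon, with genes in their role groups and symbols for the 3 classes of match. The 26 8mers are spread over all 5 groups, and the lines of Trp53, Smad4 and Erbb2 carry no symbol.

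The windows below belong to the genes on which the counts turn. Each line gives 24 bases of the transcript read 5′ to 3′ (GENCODE vM21 transcripts, GRCm38), ending at the last base of the site, and capitals mark the bases that match the seed class. Bmf is shown with its 3 8mers because it has the most 8mers of the list, and Cbfb and Ppp1ca show the shorter classes.
Bak1, chr17:27020316-27020339, - strand: ccttggcggctggactCTCAGGGA
Bmf, chr2:118532085-118532108, - strand: gcgcccaccgcatgggCTCAGGGA
Bmf, chr2:118532044-118532067, - strand: tcaacttccggaagacCTCAGGGA
Bmf, chr2:118531428-118531451, - strand: tctccccgctgcagtgCTCAGGGA
Mcl1, chr3:95662965-95662988, + strand: tttgtcttacacgtctCTCAGGGA
Klf13, chr7:63891252-63891275, - strand: accccaccccccctttCTCAGGGA
Ets1, chr9:32756393-32756416, + strand: aaatatttaggagctgCTCAGGGA
Lin28a, chr4:134005301-134005324, - strand: caggtacatgagcaatCTCAGGGA
Lin28b, chr10:45378798-45378821, - strand: aggacaaagaactttgCTCAGGGA
Cbfb, chr8:105216708-105216731, + strand: actggcttctgttttatTCAGGGA
Ppp1ca, chr19:4195295-4195318, + strand: ggggccaaggctgcagCTCAGGGc
In these lines Cbfb lacks the first C of the full match and Ppp1ca lacks the closing A.

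Most of the 35 genes were close to the level of genes that marrow cells should not express. As a measure of that level, odorant, vomeronasal and trace-amine receptor genes, 1479 in all, were counted per kb of merged exon. 95% of them lay at or below 8.30 counts per kb in the mean of the 4 libraries. On this scale, which allows genes to be compared, 7 of the 35 targets (20.0%) lay above that level, against 8.26% of all 55450 gene rows. Those rows include non-coding genes and rows with no counts, so the shares are not of like sets. Klf13, a zinc finger repressor that acts in lymphocytes and erythroid cells, stood far above the other targets at 1426 counts per kb. Next came the lymphoid factor Ets1 at 31.6, the phosphatase subunit Ppp1ca at 23.9 and Stard13 at 20.5 counts per kb. The survival factor Mcl1 had 14.3, the TGF-beta mediator Smad4 11.6 and the plasma cell factor Prdm1 9.46 counts per kb.

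Only Klf13, Ets1, Smad4 and Stard13 exceeded the receptor level of the library in each of the 4 libraries. Prdm1 did so in 3. Mcl1 and Ppp1ca did so in 1 library each, endogenous 3 for Mcl1 and endogenous 1 for Ppp1ca, and their means rest on it. Bak1, the target most often tied to miR-125 in blood stem cells, had 2.39 counts per kb, and Trp53, the gene of p53, had 0.247, the lowest of the list.

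**Figure D2:**
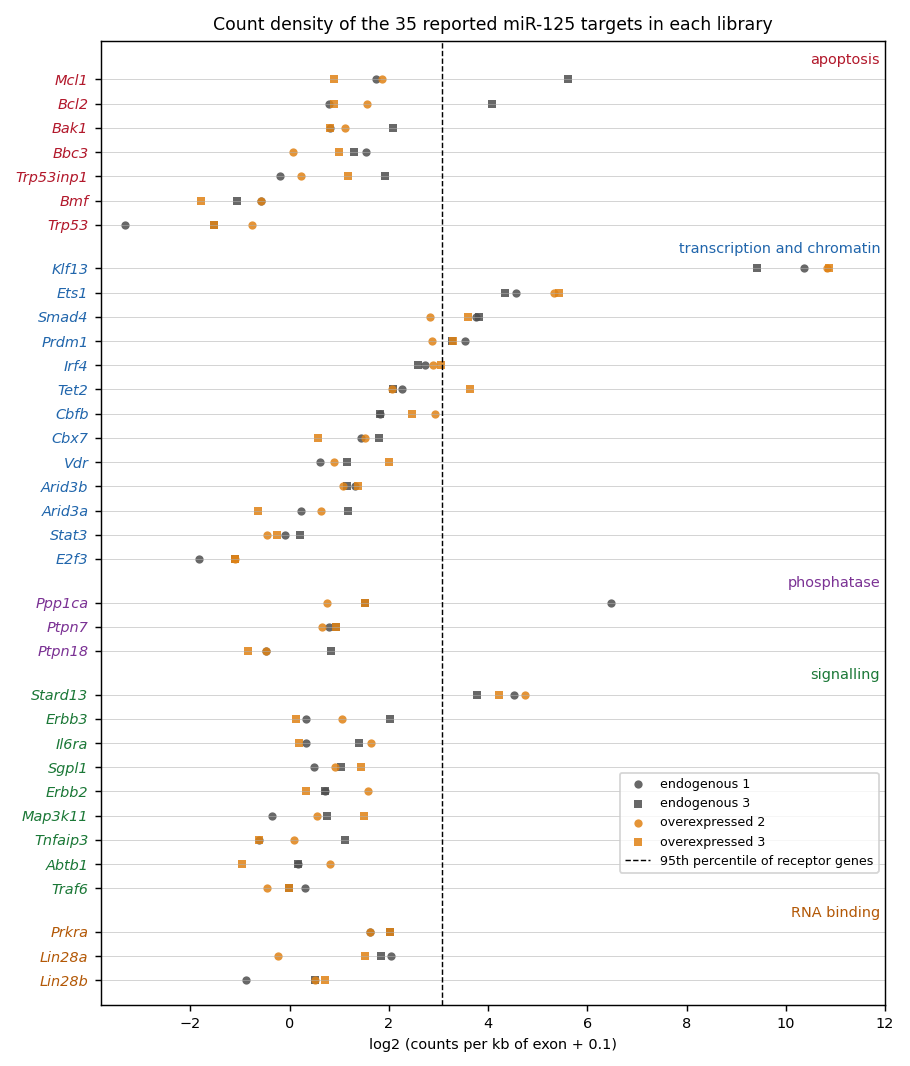
Counts per kb of merged exon for each of the 35 targets, as log2 with 0.1 added, with 1 point for each library (grey endogenous, orange overexpressed) and a dashed line at the level that 95% of receptor genes do not exceed. Klf13 lies far to the right in every library, and the single right-hand points of Mcl1 and Ppp1ca are endogenous 3 and endogenous 1.

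No target passed the test between overexpressed and endogenous libraries, and neither did any other gene. Of the 35 targets, 20 passed the filter on low counts and were tested together with all 10808 genes that did. With edgeR's quasi-likelihood F test and an adjusted p under 0.05 as the threshold, 0 of these 20 were called, beside 0.0% of all genes tested. At an unadjusted p under 0.05 the test gave 1 target, Mcl1, beside 5.24% of all genes. DESeq2 called 151 genes (1.40%) and the likelihood ratio test 84 (0.777%), with no target in either case, and limma-voom called 0 genes. The other 15 targets had too few counts for the filter in at least 3 libraries, and their values follow in their groups.

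Among the 20, 12 had a higher and 8 a lower fitted value with overexpression. The median log2 fold was 0.22, against -0.006 for all tested genes, and the mean was -0.01. Scaling by total counts alone moved the median of all genes to -0.29 and that of the targets to -0.09, which again is above the median of all genes. Fitted changes of 18 of the 20 targets lay between -1.36 and 1.40, the 5th and 95th percentiles of all genes. The standard error was larger than the fitted change in 10 of them, and 9 changed sign when 1 of the 4 libraries was left out.

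**Figure D3:**
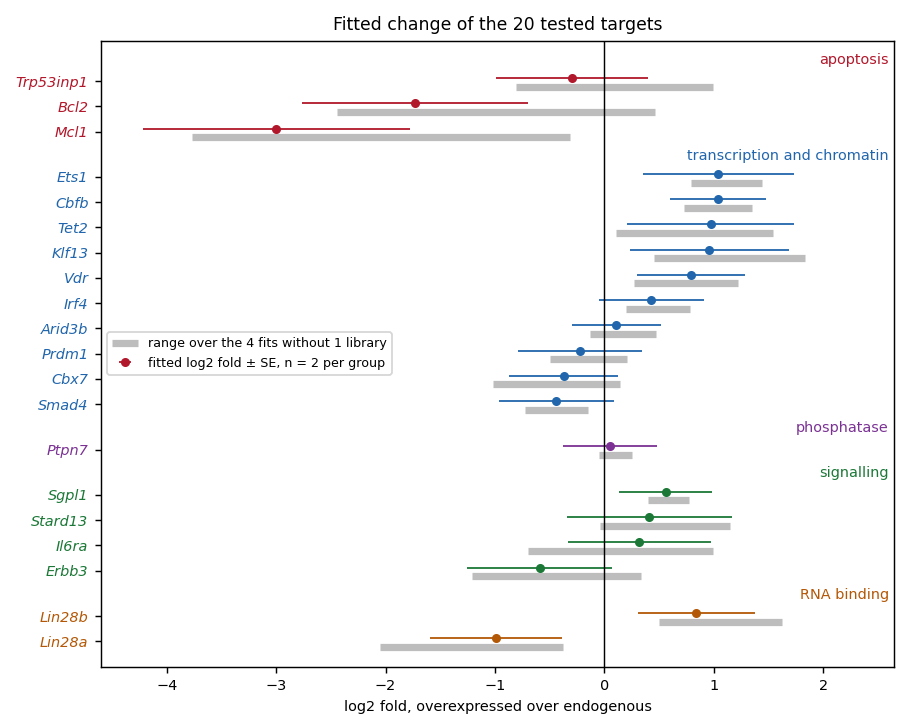
Fitted log2 fold (overexpressed over endogenous) of the 20 tested targets by role group, with bars of ± SE (n = 2 per group) and grey bars for the range over the 4 fits that each leave out 1 library. The bars of Mcl1 and Bcl2 are the longest, and the grey bars of 9 genes cross 0.

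Both values in one group lay above both in the other, on the CPM scale (counts over the scaled library size), for 9 of the 20 tested targets. In 7 of them the overexpressed values were the higher ones, beside 15.2% of all tested genes, and these were Klf13, Irf4, Cbfb, Vdr, Ets1, Sgpl1 and Lin28b. In 2 they were the lower ones, beside 18.0% of all tested genes, and these were Smad4 and Lin28a. None of these differences passed the test over all genes. The separation depends on the scaling. In unscaled counts Vdr (8 and 12 against 10 and 22) and Sgpl1 (8 and 12 against 11 and 16) overlapped between the groups. Lin28b had 12 counts in both endogenous 3 and overexpressed 2. Klf13, Irf4, Cbfb, Ets1, Smad4 and Lin28a stayed apart in those counts, but the log2 fold of Irf4 was 0.16 with scaling by total counts alone.

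The apoptosis targets were scarce, and the clearest difference among them rested on 1 library. Bak1, which forms the pore in the outer mitochondrial membrane, had 4 and 10 counts in the endogenous libraries and 5 and 4 in the overexpressed ones. Bmf had 3 and 2 against 3 and 1, and Bbc3, which encodes the BH3-only protein PUMA, had 6 and 5 against 2 and 4. Trp53 had 0 and 1 against 2 and 1 counts, a ratio of summed counts of 3.29 with an exact 95% counting interval of 0.264 to 172. The exact 95% counting intervals of the ratio included 1 for Bak1, Bmf, Bbc3 and Trp53, so no difference was detectable in them at this depth, and none of them passed the filter.

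Mcl1, a BCL2 relative that blocks mitochondrial cell death and that stem cells need to survive, is the row ENSMUSG00000038612.16 (chr3:95658788-95663176). It had 11 and 166 counts in endogenous 1 and 3, and 12 and 6 in overexpressed 2 and 3. Endogenous 3 stood alone, and the groups overlap, since endogenous 1 lies beside the overexpressed libraries. The fitted log2 fold was -3.00 ± 1.22 (SE, n = 2 per group), with an unadjusted p of 0.0491 and an adjusted p of 0.845 by edgeR. Without endogenous 3 it was -0.31.

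Bcl2, the founding survival gene of that family, had the same shape with 15 and 153 counts against 26 and 16. Its log2 fold was -1.73 ± 1.03 (SE, adjusted p = 0.846 by edgeR), and 0.46 without endogenous 3. Trp53inp1, a p53-induced stress gene that promotes death and autophagy, had 5 and 24 against 7 and 14 counts. Its log2 fold was -0.30 ± 0.695 (SE, adjusted p = 0.980 by edgeR), and 0.99 without endogenous 3. All 3 tested apoptosis targets thus had their highest count in endogenous 3 and a fitted value below 0. The median of the 3 was -1.73 with all libraries, and 0.46, with 2 of 3 above 0, when endogenous 3 was left out.

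Endogenous 3 also had the highest summed counts of the erythroid and plasmacytoid dendritic cell markers. The 9 erythroid marker genes summed to 91 and 1358 counts in the endogenous and 317 and 18 in the overexpressed libraries, with Car1 at 9, 550, 6 and 6 and Hba-a1 at 9, 182, 12 and 0. Hba-a1, Hba-a2 and Hbb-bt were at 0 in overexpressed 3. The 6 plasmacytoid dendritic cell markers summed to 191 and 1048 against 312 and 90. Most of the 1048 were from Siglech, which had 20 and 860 against 50 and 11. Tcf4 was also highest in endogenous 3, but Bst2, Irf8 and Runx2 were highest in overexpressed 2 and Ly6d in endogenous 1. The part of these erythroid and dendritic cell markers in the values of Mcl1, Bcl2 and Trp53inp1 was not tested.

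The group of transcription and chromatin held 4 targets above the receptor level, and 7 of its 10 tested genes had fitted values above 0. Of these 7, only Klf13 and Ets1 lay above the receptor level of 8.30 counts per kb. Irf4, Tet2, Cbfb, Vdr and Arid3b lay below it, at 6.99, 6.34, 4.96, 2.30 and 2.26 counts per kb. Of 13 listed, 3 were below the filter, 3 of those tested were lower, 0 were called, and the median log2 fold was 0.61. With scaling by total counts alone, 6 were higher and 4 lower, with a median of 0.34 beside -0.29 for all genes. Without overexpressed 3, 9 of 11 were higher but the median was 0.14. Without endogenous 3 it was 0.32. The summed counts of the 9 neutrophil and monocyte markers were also higher in the overexpressed libraries, at 4843 and 6264 against 11629 and 7927 counts. Of these markers 8 were tested, with 7 higher, 1 lower and a median log2 fold of 0.88. Most of the summed counts came from the granule gene Ltf, with 4538 and 3735 against 8490 and 7413. No other marker of this list was higher in both overexpressed libraries than in both endogenous ones. Ngp had 45 and 364 counts against 1042 and 28, and S100a8 had 36 and 1130 against 739 and 205. Lyz2 was at 0 in endogenous 1. The part of these markers in the values of this group was not tested.

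Klf13 (ENSMUSG00000052040.10, chr7:63886351-63938915) had 9942 and 5146 counts in endogenous 1 and 3 and 13785 and 14079 in overexpressed 2 and 3. That is 1.52% and 0.722% of all counts against 1.87% and 1.97%, and the row ranked between 2 and 6 among all genes in each library. The endogenous libraries lay apart from one another by more than the overexpressed ones, and both were below them. On the CPM scale the values were 17718 and 7411 against 25721 and 23063, and the log2 fold was 0.96 ± 0.730 (SE, adjusted p = 0.894 by edgeR). It was 0.45 without endogenous 3 and 1.83 without endogenous 1. Klf13 made up most of the counts of the whole list. Without it the 34 other targets summed to 1052 and 1103 counts in the endogenous and 1012 and 1115 in the overexpressed libraries.

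Ets1, a founding member of the ETS family that acts in lymphocytes, had 198 and 171 counts against 340 and 364. On the CPM scale the values were 353 and 246 against 634 and 596, apart between the groups. The log2 fold was 1.04 ± 0.690 (SE, adjusted p = 0.872 by edgeR). The range over the fits without 1 library was 0.79 to 1.44. Cbfb, the partner that stabilises RUNX proteins on DNA, had 12 and 12 counts against 26 and 19. Its log2 fold was 1.04 ± 0.438 (SE, adjusted p = 0.845 by edgeR), with a range of 0.73 to 1.35 without 1 library. Cbfb therefore had about the same fitted change as Ets1 from far fewer counts.

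Vdr, the vitamin D receptor, had 8 and 12 counts against 10 and 22, and a log2 fold of 0.79 ± 0.491 (SE). That value was 0.27 without overexpressed 3 and 1.22 without overexpressed 2. Irf4, a factor of B and plasma cells, had 32 and 29 against 36 and 40 and a log2 fold of 0.43 ± 0.479 (SE), between 0.20 and 0.78 without 1 library. Tet2, which oxidises methylcytosine and is often mutated in clonal blood disorders, had 79 and 70 against 69 and 210. Here overexpressed 3 stood alone, and the log2 fold of 0.97 ± 0.767 (SE, adjusted p = 0.904 by edgeR) was 0.11 without it. Arid3b, a close relative of Arid3a, had 19 and 17 against 16 and 20 counts and a log2 fold of 0.11 ± 0.403 (SE), and its groups overlap.

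Of the 3 lower genes in this group, Smad4, the shared mediator of TGF-beta and BMP signals, had 50 and 52 counts against 26 and 44. Both overexpressed values lay below both endogenous values, with a log2 fold of -0.44 ± 0.527 (SE, adjusted p = 0.958 by edgeR), in a gene with no seed match. It was -0.15 without overexpressed 2 and -0.73 without overexpressed 3. Cbx7, a Polycomb protein of stem cell self-renewal, had 17 and 22 against 18 and 9 (log2 fold -0.37 ± 0.498, SE). Prdm1, the repressor Blimp-1 that drives plasma cell fate, had 64 and 53 against 40 and 54 (log2 fold -0.22 ± 0.568, SE). Cbx7 and Prdm1 overlapped between the groups and changed sign when 1 library was left out.

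The 3 members of this group below the filter were Arid3a, Stat3 and E2f3. Arid3a, with its 7 seed matches, had 6 and 12 counts against 8 and 3. Stat3, the transducer of IL-6 signals, had 8 and 10 against 6 and 7. E2f3, a cell cycle factor, had 1 and 2 against 2 and 2, a ratio of summed counts of 1.46 with an exact 95% counting interval of 0.247 to 9.97.

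Among the phosphatases, 1 gene had a large value in a single library. Ppp1ca (ENSMUSG00000040385.7, chr19:4192065-4195420), a catalytic subunit of protein phosphatase 1, had 223 and 7 counts in endogenous 1 and 3, and 4 and 7 in overexpressed 2 and 3. Only endogenous 1 was high, and the other 3 libraries lay at 7 counts or fewer, so the gene did not pass the filter. The exons of Ppp1ca overlap those of Rad9a on the other strand. The labels do not say whether strand was used in counting, so the reads of Ppp1ca and Rad9a cannot be told apart. Exons of Bak1, Bcl2, Arid3b, Stat3, Cbx7, Tet2, Ptpn18, Map3k11, Erbb2, Il6ra and Lin28a also overlap a gene on the other strand, with the same limit. Exons of Stard13 overlap those of Gm42906 on its own strand. Ptpn7, a lymphoid tyrosine phosphatase that restrains MAP kinases, had 10 and 11 counts against 9 and 11 and a log2 fold of 0.05 ± 0.433 (SE, adjusted p = 0.996 by edgeR). Ptpn18, which acts on ERBB2, had 4 and 11 against 4 and 3.

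When the fit was made with no low-count filter, 822 of 46089 genes (1.78%) were called, and 2 of the 35 targets were among them, both lower with overexpression, beside 1.07% of all genes called in that direction. No target was called higher, beside 0.709% of all genes. They were Ppp1ca, with a log2 fold of -4.42 and an adjusted p of 0.000575, and Mcl1, with -2.92 and an adjusted p of 0.0211, both by edgeR. Each call was lost without the library that stood alone: 1 target, Mcl1, was called without endogenous 1, beside 1.14% of all genes, and 1, Ppp1ca, without endogenous 3, beside 0.963%. The log2 fold of Ppp1ca was 0.02 (adjusted p = 0.992) without endogenous 1, and that of Mcl1 was -0.33 (adjusted p = 0.968) without endogenous 3. Neither was called when overexpressed 2 was left out (adjusted p = 0.186 and 0.154 by edgeR, beside 0.831% of all genes called). The same held without overexpressed 3 (adjusted p = 0.0667 and 0.497, beside 1.35%). Endogenous 1 had the most counts of the 9 B-lineage markers, 1349 and 500 against 707 and 357, and none of these markers was at 0 in any library. Their part in the value of Ppp1ca was not tested.

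The signalling targets gave no shared direction that held across the fits. Of 9 listed, 4 were tested, with 3 higher and 1 lower, 0 called and a median log2 fold of 0.36. With scaling by total counts alone 2 were higher and 2 lower (median 0.05), and without overexpressed 2 the median was -0.33 over 6 tested genes. Stard13 was the most abundant of the group per kb, with 197 and 117 counts against 230 and 159. Its libraries overlapped between the groups, and the log2 fold was 0.41 ± 0.756 (SE, adjusted p = 0.978 by edgeR). Sgpl1, the lyase that ends sphingosine-1-phosphate signals and carries 2 8mers, had 8 and 12 counts against 11 and 16. It had the narrowest range of the group without 1 library, 0.40 to 0.77, around a log2 fold of 0.56 ± 0.425 (SE, adjusted p = 0.894 by edgeR).

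Il6ra, the ligand-binding chain of the interleukin-6 receptor, had 10 and 22 counts against 26 and 9 and a log2 fold of 0.32 ± 0.651 (SE). Overexpressed 2 was the highest and overexpressed 3 the lowest library, and the log2 fold was -0.70 without overexpressed 2. Erbb3, a receptor of neuregulins, had 7 and 24 against 12 and 6, and a log2 fold of -0.59 ± 0.663 (SE) that was 0.33 without endogenous 3. Its partner Erbb2 had 8 and 8 against 15 and 6 counts and was not tested.

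The regulators of NF-kB on the list were scarce. Tnfaip3, which encodes the brake A20, had 4 and 15 counts against 7 and 4, with endogenous 3 again the highest library. Traf6, the ubiquitin ligase downstream of Toll-like and IL-1 receptors, had 9 and 7 against 5 and 7. Map3k11, a kinase upstream of JNK, had 3 and 7 against 6 and 12, and Abtb1 had 5 and 5 against 8 and 2. Tnfaip3, Traf6, Map3k11 and Abtb1 were all below the filter.

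The 2 Lin28 paralogs block the maturation of let-7 microRNAs, and Lin28b is known from fetal rather than adult blood stem cells. Their fitted values were on opposite sides of 0. Lin28a had 16 and 14 counts against 3 and 11, with both overexpressed values below both endogenous ones on the CPM scale. Its log2 fold was -0.99 ± 0.605 (SE, adjusted p = 0.851 by edgeR), -0.38 without overexpressed 2 and -2.05 without overexpressed 3. Lin28b had 4 and 12 counts against 12 and 14, with the overexpressed values above the endogenous ones on the CPM scale, and a log2 fold of 0.84 ± 0.533 (SE, adjusted p = 0.855 by edgeR), which was 1.62 without endogenous 3 and 0.50 without endogenous 1. Both have 1 8mer. Their densities, 2.75 and 1.16 counts per kb, lay below the receptor level of 8.30. Prkra, the PACT protein that binds Dicer, had 6 and 8 against 6 and 8 counts and was not tested.

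By class of seed match, the targets with an 8mer, the class known for the strongest repression, had the highest median. Of the 12 tested targets with an 8mer, 9 were higher and 3 lower, with a median log2 fold of 0.42. The 7 with a 7mer but no 8mer had 3 higher and 4 lower values and a median of -0.22, and the single tested target with no match, Smad4, had -0.44. Over all tested genes the medians were 0.03 for the 541 with an 8mer, 0.04 for the 1757 with a 7mer only and -0.02 for the 6406 with no match. The 12 and 7 targets are few and were not set against these genes by a test. The 3 targets with an 8mer and a lower value were Mcl1, Lin28a and Erbb3.

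**Figure D4:**
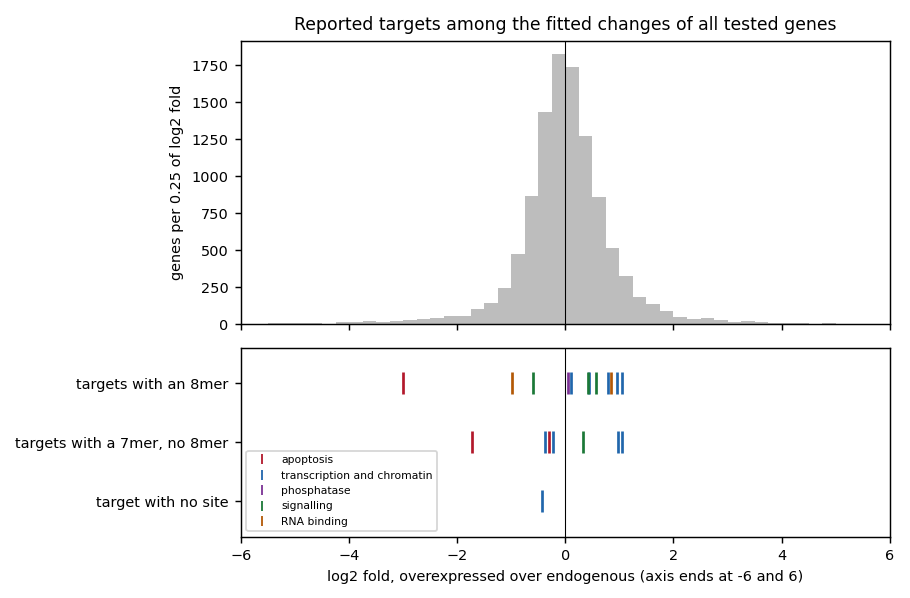
Upper panel: number of tested genes in each interval of 0.25 of log2 fold (overexpressed over endogenous, 10808 genes). Lower panel: the 20 tested targets on the same axis, 1 tick each, by class of seed match and coloured by role group. The ticks lie within the bulk of the genes apart from Mcl1 at -3.00 and Bcl2 at -1.73.

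Other genes of the same pathways, which are not on the target list, also gave 0 calls in the test over all genes. Of 21 other BCL2 family and caspase genes, 8 were tested, 3 higher and 5 lower, with a median log2 fold of -0.26. The BH3-only gene Bcl2l11 (BIM) had 10 and 6 counts against 10 and 23, and the mitophagy gene Bnip3 had 21 and 21 against 3 and 15. Their log2 folds were 1.12 ± 0.578 and -1.12 ± 0.645 (SE, both with adjusted p = 0.845 by edgeR). With no low-count filter 4 of the 21 were called, and each had most of its counts in 1 library. These were Bax, the partner of BAK1 in pore formation (35 and 0 against 0 and 0), Bcl2l2 (22 and 7 against 2 and 1), cytochrome c Cycs (1 and 103 against 6 and 3) and Pmaip1, which encodes NOXA (3 and 7 against 4 and 72). In summed counts Bax was at least 10.7-fold lower, with 3 counts over the overexpressed group as the floor. That bound rests on endogenous 1 alone, since endogenous 3 had 0 counts as well. The adjusted p was 0.968 for Bcl2l2 without endogenous 1, 0.964 for Cycs without endogenous 3 and 0.979 for Pmaip1 without overexpressed 3. Bax had 0 counts in every library but endogenous 1, so it could not be fitted without that library.

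Of 19 p53 response genes, 4 were tested and all 4 were lower, with a median log2 fold of -0.69. Mdm4, which restrains p53, had 29 and 54 counts against 16 and 25 (log2 fold -0.87 ± 0.492, SE). Zmat3, an RNA-binding p53 target, had 15 and 13 against 6 and 10 (log2 fold -0.69 ± 0.471, SE). In both genes the overexpressed counts lay below the endogenous ones, with adjusted p of 0.845 and 0.881 by edgeR.

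The machinery that makes and uses microRNAs showed no common direction, with 4 of 9 tested genes higher, 5 lower and a median log2 fold of -0.07. The Argonaute gene Ago4 had 54 and 10 counts against 9 and 18, and the nuclear exporter Xpo5 had 39 and 25 against 44 and 60. Xpo5 had a log2 fold of 0.78 ± 0.573 (SE, adjusted p = 0.891 by edgeR). Ago4 had -1.23 ± 0.898 (SE, adjusted p = 0.891 by edgeR), with endogenous 1 alone high.

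In the TRAF6 and NF-kB list, 13 of 19 genes were tested, 5 higher and 8 lower, with a median log2 fold of -0.02 and a mean of -0.37. Ikbkb, the kinase IKK-beta that releases NF-kB, had 20 and 26 counts against 6 and 9. Map3k7, the kinase TAK1 between TRAF6 and IKK, had 12 and 15 against 3 and 5. In both genes the 2 overexpressed libraries were low and the 2 endogenous ones high, and no single library carried the difference. Log2 folds were -1.47 ± 0.410 for Ikbkb and -1.60 ± 0.555 for Map3k7 (SE, both with adjusted p = 0.845 by edgeR). Without 1 library they ranged from -1.66 to -1.26 and from -1.87 to -1.33.

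In the IL-6 receptor and STAT3 list, 7 of 8 genes were tested, 4 higher and 3 lower, with a median log2 fold of 0.03. Its 2 genes with the smallest p each rested on 1 library. The phosphatase gene Ptpn11 (SHP2) had 8 and 74 counts against 4 and 13, and the kinase gene Jak1 had 30 and 37 against 324 and 22. The log2 fold of Ptpn11 was -2.05 ± 1.01 (SE), and 0.01 at the upper end of the range without 1 library. That of Jak1 was 2.58 ± 1.29 (SE), and -0.52 at the lower end.

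Of 15 partners and relatives of the listed transcription factors, 10 were tested, 7 higher and 3 lower, with a median log2 fold of 0.19. Runx3, which binds DNA together with Cbfb, had 201 and 162 counts against 1287 and 377, with both overexpressed libraries above both endogenous ones. Its log2 fold was 2.35 ± 0.929 (SE, adjusted p = 0.845 by edgeR), between 1.09 and 3.04 without 1 library. Smad3, a partner of Smad4, had 15 and 13 counts against 31 and 22 (log2 fold 1.04 ± 0.467, SE), while Smad4 itself had a fitted value below 0. The T and NK lineage markers, some of which mark cells that express Runx3, summed to 37 and 78 counts against 242 and 53. Most of the 242 were from Nkg7, which had 19 and 25 against 208 and 15. Cd3d, Cd3g, Cd4 and Klrb1c had their highest count in endogenous 3. Cd8a and Trbc2 had it in overexpressed 2 and Cd3e in overexpressed 3. Cd8a was at 0 in endogenous 1, and Klrb1c was at 0 in endogenous 1 and overexpressed 2. The part of these markers in the value of Runx3 was not tested.

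**Figure D5:**
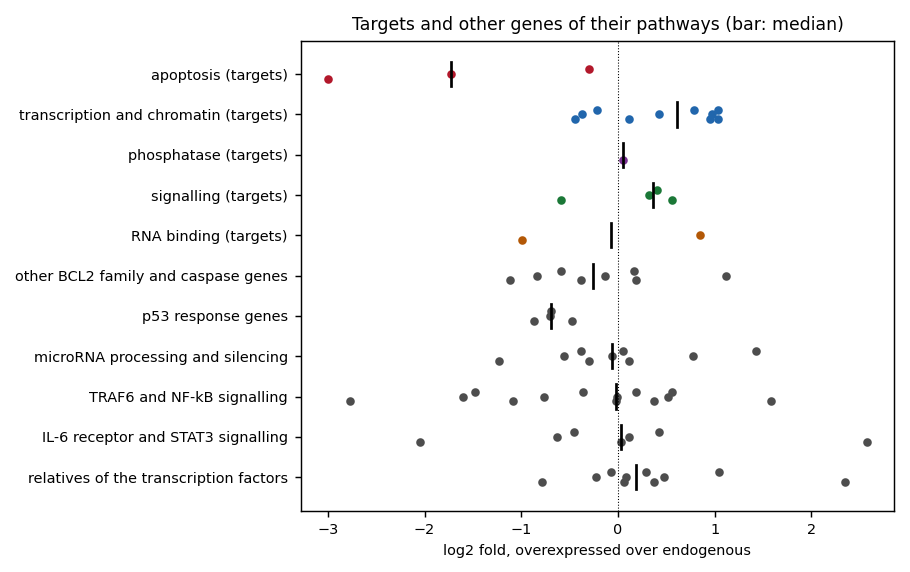
Fitted log2 folds (overexpressed over endogenous) of the tested targets in their 5 role groups (coloured) and of the tested genes of the 6 pathway lists (dark grey), 1 point per gene, with a black bar at the median of each list. Points scatter on both sides of 0 in all lists except the apoptosis targets, the p53 response genes and the phosphatases, of which 3, 4 and 1 were tested.

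The authors' deposited table of their own edgeR comparison lists 17039 genes and holds 28 of the 35 targets. It carries a likelihood ratio rather than the F statistic of the main fit, and lists more genes than the 10808 tested there. Its calls are therefore not on the same measure as the main fit, in which Ppp1ca was not tested. An FDR under 0.05 is given there, in the authors' deposited table, to 404 genes (2.37%), and 1 target is among them, Ppp1ca, with a log2 fold of 4.41 (endogenous over overexpressed) and an FDR of 0.00885. For Mcl1 the authors' deposited table gives 2.95 in the same direction with an FDR of 0.056. Those are the same 2 genes whose counts above came from 1 library each. Of the 28 targets in the authors' deposited table, 15 have higher and 13 lower values with overexpression. The sign of these folds is not stated in the table and was read from the counts.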

How the data were processed

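RNA-seq counts of 4 libraries, 2 per group, were analysed. The deposited counts are whole numbers per gene, not normalized by the authors. FastQC 0.11.8, STAR, edgeR 3.24.3 and the mm10 build are named in the submitters' processing notes. The version of STAR, the counting tool, the annotation it used and its strand setting were not stated there. The authors also deposited log2 fold changes and mean log2 CPM, per the file headers. Unadjusted p-values and FDR (q-values) were deposited by the authors, per the file headers. That deposited table also has a likelihood ratio score and, judging from its values, a −log10 p score signed by the fold. All 55450 gene identifiers matched GENCODE vM21, which gave symbols, exons and 3′ UTRs.

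Counts were fitted with edgeR 4.0.16 (R 4.3.3), with the filter filterByExpr (minimum count 10 in 2 libraries, minimum total 15), TMM, quasi-likelihood F test, Benjamini-Hochberg adjustment over all 10808 tested genes, threshold 0.05. SE was taken as the size of the log2 fold divided by the root of F. The fit was tested on simulated data. Alternatives were other scalings and filters, DESeq2 1.42.0, limma-voom (limma 3.58.1), the likelihood ratio test and leaving out each library. Leaving out a library with no filter was added after seeing the data. Counting intervals are exact at 95%, scaled by effective library size, and cover counting error only. The targets and lists were chosen with earlier results of these data known, and no list was tested. Targets that passed the filter are named with all counts, as are the others where few; of each pathway list the called genes or the 2 with the smallest p are named. The genes called without a filter and the marker genes were named after their values were seen.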

Additional observations from a re-analysis of the deposited data

How the results depend on the processing

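No paired analysis was possible because the analysed libraries of the 2 groups share only the replicate number 3. The count of genes called was 0 in the reported fit and also with RLE factors, with total counts alone, with at least 10 counts in every library, with limma-voom and in the 4 fits without 1 library. It was 822 with no filter, 151 with DESeq2 and 84 with the likelihood ratio test. With no filter and 1 library left out it was 511 and 425 (endogenous 1 and 3) and 373 and 602 (overexpressed 2 and 3). Targets called numbered 2 with no filter, 1 without endogenous 1 and 1 without endogenous 3 at that setting, and 0 otherwise. Mcl1 passed only with no filter among the alternatives that keep all libraries (-2.92, adjusted p = 0.0211 by edgeR; 0.0952 with DESeq2).

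The median log2 fold of the tested targets, 0.22, was -0.09 with total counts alone, 0.08 with no filter, 0.37 with at least 10 counts in every library, 0.14 with limma-voom and between 0.03 and 0.37 without 1 library. With no filter 17 targets were lower, and with at least 10 counts in every library 7 were higher and 3 lower. Single targets kept their sign and their side of the threshold in 70 of 80 fits without 1 library and in 126 of 130 other fits. With total counts alone Arid3b (-0.15), Ptpn7 (-0.22) and Il6ra (-0.03) turned negative. Ranges without 1 library crossed 0 for Trp53inp1 (-0.81 to 0.99), Bcl2 (-2.44 to 0.46), Arid3b (-0.13 to 0.47), Prdm1 (-0.50 to 0.21), Cbx7 (-1.02 to 0.14), Ptpn7 (-0.05 to 0.25), Erbb3 (-1.21 to 0.33), Il6ra (-0.70 to 0.99) and Stard13 (-0.04 to 1.15). The cause of these changes was not tested. Precision is limited by 2 libraries per group and at most 737431 counts in each, and 7 of the 35 targets lay above the receptor level.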
